A study of Mus musculus with 2 samples.

Results

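Type 1 conventional dendritic cells (cDC1) were described in single-cell RNA from mouse breast tumours. The members were chosen by RNA counts, and 158 of 14709 cells qualified. The 14709 were the cells with 500 or more UMIs from 200 or more genes, of which no more than 20% were mitochondrial. A UMI is a molecular tag that marks 1 captured RNA molecule. A member held at least 1 UMI of Xcr1 or Clec9a, at least 2 UMIs of Naaa or Wdfy4, fewer than 5 UMIs of the 3 C1q genes per 10000, and no UMI of Cd3e, Siglech, Fscn1 or Cd209a. The K2-KO library held 117 members and the control library 41.

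The tumours grew from 4T1 cells, a BALB/c mammary tumour line whose cells the labels call TNBC (triple-negative breast cancer) cells. In the K2-KO group the injected cells carried the K2 sgRNA, which targets Kindlin-2 (Fermt2), an adaptor that activates integrins. In the control group they carried the Ctrl sgRNA, with the genotype given as WT. Both groups were female BALB/c mice whose tumours were taken at 150 mm3, digested for 45 min, and sorted as live cells by their mCherry signal. There was 1 droplet library per group. The mutation was in the injected tumour cells, and the dendritic cells belong to the host. The loaded mix of mCherry-positive and mCherry-negative cells and the number of tumours behind each library are not given in the sources used here. With 1 library per group there was no replicate error and no test of any difference between the groups. Every interval below is an exact 95% interval that covers counting error only.

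Type 1 conventional dendritic cells take up dead cells and present their antigens on MHC class I to CD8 T cells, a process called cross-presentation. Their development depends on the transcription factors Irf8, Batf3 and Id2 and on the receptor Flt3. Xcr1 is the receptor for Xcl1, a chemokine made by NK and T cells. Clec9a binds actin exposed on dead cells. Wdfy4 is needed for cross-presentation of cell-associated antigen, and Naaa is a lysosomal acid amidase. On the mm10 build these protein-coding genes lie with Xcr1 at chr9:123852315-123862029 (minus strand), Clec9a at chr6:129408862-129424763 (plus strand), Wdfy4 at chr14:32959547-33185508 (minus strand) and Naaa at chr5:92257659-92278170 (minus strand).

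The members of both libraries had similar depth. Their median was 19265 UMIs in the K2-KO library and 17666 in the control library, and their totals were 2129794 and 676476 UMIs. A doublet caller marked 1 K2-KO member and 0 control members. The libraries shared 13 cell barcodes, and no barcode was a member in both.

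The members formed a larger share of the K2-KO library. They made up 1.68% of its filtered cells (1.39 to 2.01) and 0.529% of the control cells (0.380 to 0.717), a 3.18-fold difference (2.21 to 4.65). Among leukocytes, cells with a Ptprc UMI and little keratin or Epcam RNA, they made up 2.70% in the K2-KO library (100 of 3705) and 1.14% in the control library (35 of 3060), or 2.36-fold (1.59 to 3.57). The sort can set these shares, and its part in them cannot be told apart from that of the knockout.

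Other dendritic cells were counted with 3 further rules. Cells with at least 2 UMIs of Cd209a, a lectin of type 2 conventional dendritic cells, made up 0.891% of K2-KO and 0.271% of control cells, or 3.29-fold. Cells with Ccr7 and Fscn1, which in dendritic cells mark migration to lymph nodes, made up 0.891% of K2-KO and 0.465% of control cells, or 1.92-fold. Plasmacytoid cells with Siglech, specialised producers of interferon, made up 1.32% of K2-KO and 0.245% of control cells, or 5.39-fold. All 4 groups were more frequent in the K2-KO library, as the bars of the share plot show.

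Much of the Ccr7 Fscn1 group went against a dendritic label. The leukocyte rule was passed by 27 of its 62 K2-KO and 11 of its 36 control cells, against 100 of 117 K2-KO and 35 of 41 control cDC1. Among leukocytes the group's share differed 2.03-fold, with an interval (0.973 to 4.53) that takes in no difference. Its level of H2-Ab1, an MHC class II chain, was 599.9 CPM (UMIs of a gene scaled to a total of 1000000) in K2-KO and 479.99 CPM in control cells, against 5515 and 5561 CPM in cDC1. Ccnd1, a cyclin gene, had 821 CPM in K2-KO and 866 CPM in control cells of the group, against 158 and 127 CPM in cDC1. Fermt2, the gene targeted in the tumour cells, had 6.33 CPM in K2-KO and 44.8 CPM in control cells of the group. Their median depth was 32437.5 UMIs in the K2-KO and 47149.5 UMIs in the control library. The group is therefore named by its genes alone, and the part of other cells in its values was not tested.

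**Figure D1:**
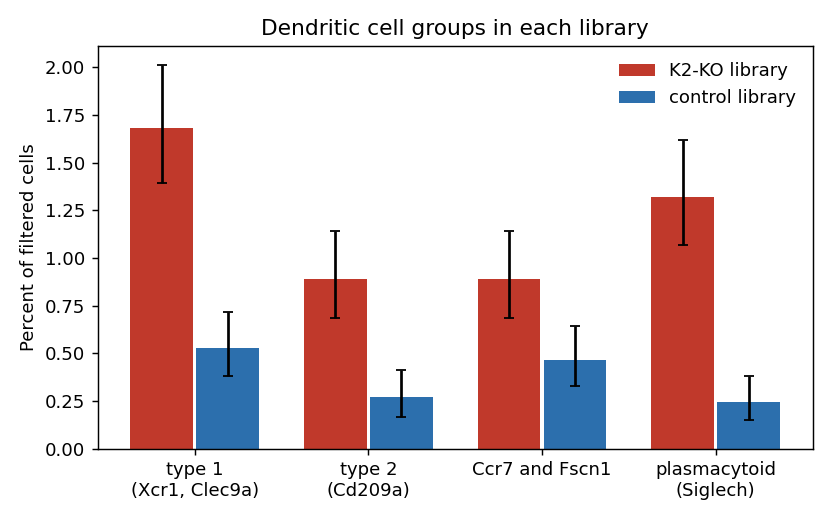
Percent of filtered cells (y axis) in each of 4 dendritic cell groups, with the K2-KO library in red and the control library in blue; error bars are exact 95% binomial intervals. Type 1 cells made up 1.68% of K2-KO and 0.529% of control cells, and the K2-KO bar is the taller one in every group.

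The share of cDC1 within the dendritic groups depended on which cells were pooled. Over the 4 groups it was 35.1% in the K2-KO library (117 of 333, interval 30.01 to 40.5) and 35.0% in the control library (41 of 117, interval 26.5 to 44.4). Without the Ccr7 Fscn1 group it was 43.2% in the K2-KO library (117 of 271) and 50.6% in the control library (41 of 81), or 0.853-fold (0.593 to 1.25). Over the cells that passed the leukocyte rule it was 35.8% (100 of 279) and 42.2% (35 of 83), or 0.850-fold (0.573 to 1.29). Each of these 3 folds has an interval that takes in 1. The Ccr7 Fscn1 group took 18.6% of the 4 groups in the K2-KO library and 30.8% in the control library. The plasmacytoid group took 27.6% in the K2-KO library and 16.2% in the control library. Cells with at least 2 UMIs of Ncr1 or Klrb1c and none of Cd3e or Cd3d, an NK rule, made up 5.43% of K2-KO and 1.43% of control cells, or 3.79-fold (3.06 to 4.73). Their Xcl1 level was 705 CPM in the K2-KO library and 873 CPM in the control library. Over all leukocytes Xcl1 went the other way, with 109 CPM in the K2-KO and 57.8 CPM in the control library, and over all cells with 31.7 and 12.3 CPM.

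The label was checked against markers that the rule did not use. Such markers were present in both libraries, Irf8 (1295 CPM in the K2-KO library, 1085 CPM in the control library), Batf3 (185 and 129 CPM), Cadm1 (286 and 327 CPM), Itgae (286 and 358 CPM) and Flt3 (149 and 155 CPM) among them. At least 1 UMI of Batf3 was found in 69.2% of K2-KO and 65.9% of control members, against 4.42% of K2-KO and 3.24% of control T cells, whose median depths were 8221 and 8082 UMIs. These genes did not all set cDC1 apart from plasmacytoid cells, which had more Irf8 (1921 CPM in K2-KO and 1827 CPM in control cells), Cadm1 (1215 and 1779 CPM) and Flt3 (280 and 288 CPM). Batf3 was at 0.818 and 0 CPM in plasmacytoid cells and Itgae at 0 CPM in both libraries. For Irf8, which T cells also make, the shares were 96.6% and 87.8% of members and 37.3% and 43.2% of T cells. Genes that mark B cells, T cells and mast cells summed to at most 2.82 CPM in either library, though the rule itself allowed no Cd3e UMI. Markers of type 2 dendritic cells summed to 231 CPM in the K2-KO and 250 CPM in the control library, although the rule allowed no Cd209a UMI. Neutrophil markers summed to 111 and 73.9 CPM, and those of Ccr7 Fscn1 cells to 70.0 and 68.0 CPM, although the rule allowed no Fscn1 UMI.

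The rule also took in cells that go against the label. In 30 of 117 K2-KO members and 9 of 41 control members, either the sum of Xcr1, Clec9a, Wdfy4 and Naaa was under 10 UMIs per 10000 or the sum of monocyte and macrophage markers reached 10 UMIs per 10000. These 39 cells are called the remaining members here and the other 119 the core members, a division made after the values were seen. In the remaining members Lyz2, the lysozyme gene of myeloid cells, had 3348 CPM in the K2-KO library and 2984 CPM in the control library, against 197 and 110 CPM in the core. Csf1r, the receptor for macrophage growth factor, had 306 and 390 CPM in the remaining members and 10.4 and 5.77 CPM in the core. Xcr1 had 14.3 and 6.39 CPM in the remaining members and 273 and 240 CPM in the core, a difference that the division itself fixed.

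**Figure D2:**
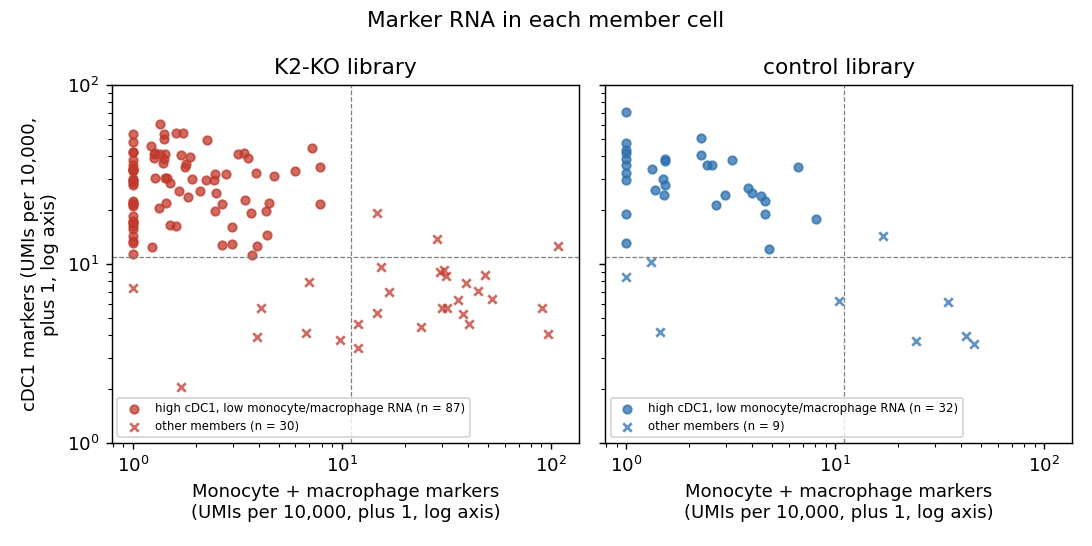
Each point is 1 member cell; the x axis is the sum of monocyte and macrophage markers and the y axis the sum of cDC1 markers, both in UMIs per 10000 plus 1 on log axes, with the K2-KO library on the left and the control library on the right. Circles are core members (87 and 32) and crosses the remaining members (30 and 9). The crosses lie mostly at the lower right in the K2-KO panel, and at the lower left as well as the lower right in the control panel.

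Core members made up 1.25% of K2-KO cells (1.00 to 1.54) and 0.413% of control cells (0.283 to 0.583), a 3.03-fold difference (1.996 to 4.69) that does not count the remaining members. The monocyte marker Ly6c2 had 74.7 CPM in K2-KO members and 7.39 CPM in control members, and 11.6 and 3.85 CPM in the core. The summed monocyte markers were 274 CPM in the K2-KO and 130 CPM in the control members, and the epithelial markers 142 and 56.2 CPM. The macrophage markers, which include the 3 C1q genes that the rule capped, summed to 383 and 420 CPM. The part of these cells and of this RNA in each gene difference was not tested, and core values are given beside those of all members for the lists and for most of the genes named.

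The threshold itself fell inside a gradient. The 44 members with exactly 1 UMI of Xcr1 and Clec9a had 537 CPM of Irf8 and 2090 CPM of Lyz2, and the 114 members with more had 1397 and 628 CPM. The 520 cells outside the rule with no UMI of either gene had 234 CPM of Irf8 and 4561 CPM of Lyz2.

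The 15 genes highest in cDC1 over the 3 other dendritic groups in both libraries were picked by their smallest ratio. Since this choice used the same counts, their values are a description. Xcr1 led the list, with 213 CPM (194 to 234) in K2-KO and 186 CPM (155 to 222) in control cDC1, and 6.33 and 0 CPM in the Ccr7 Fscn1 group. The rules for the Cd209a and plasmacytoid groups left out cells with an Xcr1 UMI. Lrrk2, a kinase known from Parkinson disease, had 404 CPM in K2-KO and 569 CPM in control cDC1, with at most 62.8 CPM in any other group. Itgae, the integrin chain CD103, had 286 and 358 CPM, with at most 52.9 CPM elsewhere. Tlr3, the sensor of double-stranded RNA, had 114 and 87.2 CPM, with at most 19.6 CPM elsewhere. The other 11 genes were Ccser1, Dpy19l3, Mctp1, Gm36723, P3h2, Asb2, Ppt1, Gcsam, Hepacam2, Gpr141b and Qpct.

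**Figure D3:**
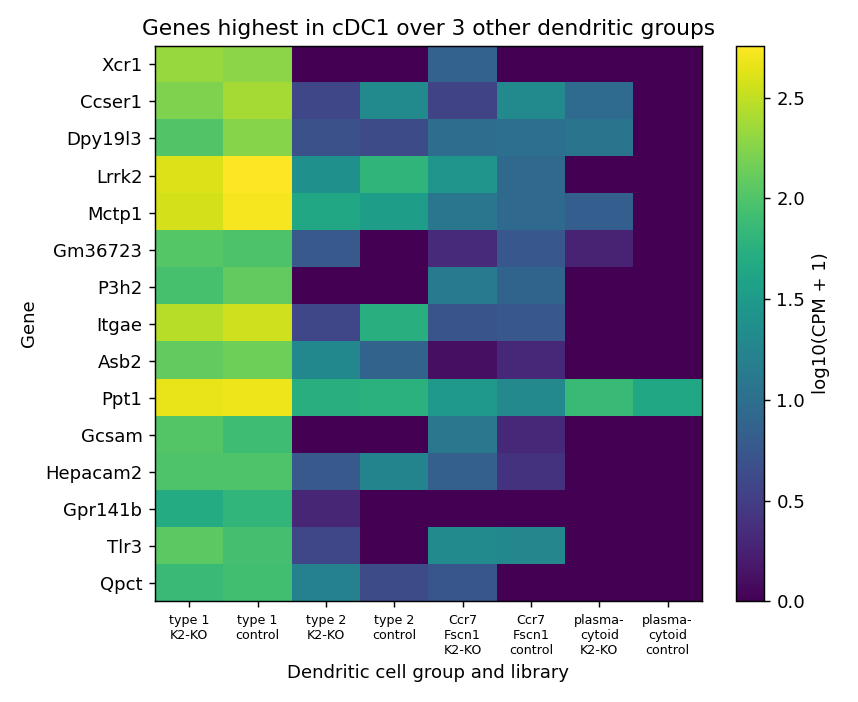
Rows are the 15 genes highest in cDC1, columns are the 4 dendritic groups with the K2-KO library left of the control library in each, and colour is log10 of CPM plus 1. Both cDC1 columns are bright for every gene, and the other columns are darker; Ppt1 alone is above 0 in all 8 columns.

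The first comparison within the cells asked how gene levels differed between K2-KO and control cDC1. Ratios are log2 of CPM in the K2-KO over the control library. Of the 8650 genes with at least 20 UMIs in the members, 1237 were at least 1.5-fold higher in the K2-KO library (14.3%) and 780 at least 1.5-fold lower (9.02%), and the median ratio was 0.035. In the core the 7733 such genes held 1108 higher (14.3%) and 808 lower (10.4%). These shares are the background for the gene lists below, and with a median of 93 UMIs per gene many such folds lie within counting error.

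**Figure D4:**
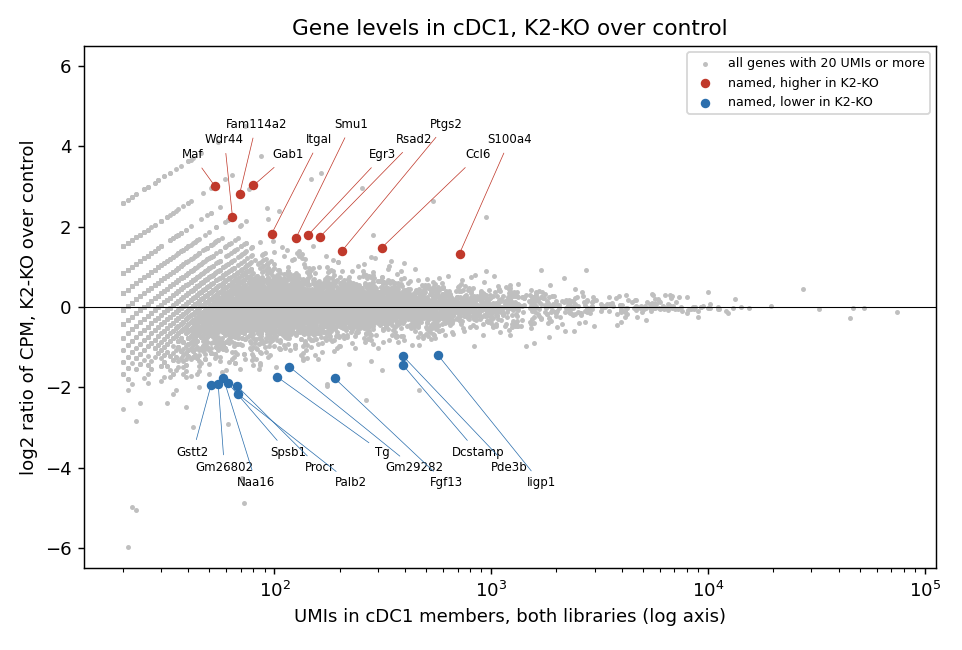
Each grey point is 1 gene with at least 20 UMIs and a UMI in both libraries; the x axis is its UMIs over both libraries on a log axis and the y axis the log2 ratio of CPM, K2-KO over control. The spread of the grey points narrows with depth, and the named genes on each side lie at its edge, with some unnamed genes farther out.

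The genes that carry the cDC1 identity were close between the libraries. Of 32 identity genes, 3 were past 1.5-fold on the higher side in the K2-KO library and 0 on the lower side, and the list's median ratio was 0.01. The list includes the 4 rule genes, so its counts and medians are partly set by how the members were chosen. In the core 4 of 32 were higher and 2 lower, with a median of -0.02. The rule genes gave ratios of 0.19 for Xcr1 (-0.09 to 0.49), -0.00 for Clec9a (-0.27 to 0.27), 0.03 for Naaa (-0.08 to 0.15) and -0.12 for Wdfy4 (-0.25 to 0.01), which describe how the members were chosen. Cd24a, a surface glycoprotein used to sort cDC1, was higher: it had 381 CPM (355 to 408) in K2-KO and 204 CPM (171 to 241) in control members, a ratio of 0.90 (0.64 to 1.17), and 478 against 252 CPM in the core. Cd36, a scavenger receptor for dead cells and lipids, had 138 CPM in K2-KO and 188 CPM in control members, a ratio of -0.44 (-0.75 to -0.13), and -0.65 (-0.98 to -0.32) in the core.

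Among 32 transcription factors, 2 were at least 1.5-fold higher and 1 lower, while in the core 2 of 30 were higher and 5 lower. Id2 had 854 CPM (815 to 894) in K2-KO and 514 CPM (462 to 571) in control members, a ratio of 0.73 (0.56 to 0.90), and 0.68 (0.50 to 0.86) in the core. Batf3 had a ratio of 0.53 (0.19 to 0.88) and Irf8 of 0.26 (0.14 to 0.38), each with an interval above 0 in the core as well. Bach2, a repressor of lymphocyte effector genes, had 86.4 CPM in K2-KO and 132 CPM in control members, a ratio of -0.61 (-0.98 to -0.23), and -1.29 (-1.79 to -0.79) in the core. Klf2 was at -0.46 (-0.63 to -0.29) and Ahr, the aryl hydrocarbon receptor, at -0.49 (-0.69 to -0.30), and in the core at -0.51 and -0.48. The other 4 that were lower in the core were Klf4 (-0.67), Zeb2 (-0.76), Nr4a3 (-0.69) and Cebpb (-1.01), which over all members were at -0.29, -0.19, -0.45 and -0.51.

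Receptors for growth factors and chemokines went both ways, with 4 of 33 higher and 5 lower, and 4 of 32 higher and 6 lower in the core. Flt3 differed little, with 149 CPM in K2-KO and 155 CPM in control members (-0.06, interval -0.38 to 0.28, core 0.05). Csf2rb, the shared chain of the GM-CSF receptor, had 492 CPM in K2-KO and 704 CPM in control members, a ratio of -0.52 (-0.68 to -0.36). The interferon gamma receptor chain Ifngr2 had 121 and 198 CPM (-0.71, interval -1.02 to -0.40), and Tgfbr2, a receptor chain for TGF beta, 56.8 and 101 CPM (-0.82, interval -1.26 to -0.37). In the core these ratios were -0.59, -0.90 and -0.84, each with an interval below 0. Ccr7 had 41.8 CPM in K2-KO and 16.3 CPM in control members (ratio interval 0.45 to 2.42), with 32.0% of its UMIs in 1 cell and 51.8 against 13.5 CPM in the core, and its ratio was -0.18 where cells past the C1q limit were let in.

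Genes for uptake and cross-presentation had 4 of 38 members higher and 1 lower, with a median of 0.07, and 6 of 37 higher and 2 lower in the core. Timd4, a receptor for phosphatidylserine on dying cells, had 225 CPM in K2-KO and 136 CPM in control members, a ratio of 0.73 (0.40 to 1.07), and 0.80 (0.46 to 1.15) in the core. Fcgr4, a receptor for IgG, had 53.1 and 20.7 CPM (ratio interval 0.55 to 2.27), and 14.0 and 1.92 CPM in the core. Mfge8, a bridge to dying cells, had 15.5 CPM in K2-KO and 31.0 CPM in control members (ratio interval -1.83 to -0.14), and 9.76 and 23.1 CPM in the core.

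Of 24 genes of MHC class I presentation, 4 were higher and 0 lower, with a median of 0.20 beside 0.035 over all genes. The immunoproteasome activator Psme1 had 991 CPM in K2-KO and 767 CPM in control members (0.37, interval 0.23 to 0.51, core 0.32), and the peptide transporter chain Tap2 162 and 118 CPM (0.45, interval 0.09 to 0.82, core 0.55). The class I gene H2-Q7 had 71.8 and 38.4 CPM (0.90, interval 0.30 to 1.56), and its core interval was 0.02 to 1.53. Its neighbour H2-Q4 had 64.8 and 90.2 CPM (-0.48, interval -0.92 to -0.02), and H2-Q6 was at -0.13 (-0.69 to 0.47). Class I genes share close copies, so reads of H2-Q7, H2-Q4 and H2-Q6 may have been divided between them. The abundant B2m, the light chain, had 1562 CPM in K2-KO and 1394 CPM in control members (0.16, interval 0.06 to 0.27), and H2-D1 2018 and 1904 CPM (0.08, interval -0.01 to 0.17). In the core B2m was at 0.12 (-0.01 to 0.25) and H2-D1 at 0.10. The list's core median was 0.13, with 4 of 24 higher and 0 lower.

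The MHC class II list was the only one of the 16 lists in which 0 members, here of 16, lay past 1.5-fold in either direction, and so it was in the core, with 0 of 15. H2-Aa had 6986 CPM in K2-KO and 6858 CPM in control members, H2-Ab1 5515 and 5561 CPM, and Cd74 11509 and 11838 CPM. The master regulator Ciita was at 0.02 (-0.22 to 0.28).

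Genes of costimulation and maturation had 4 of 27 higher and 6 lower, and 3 of 24 higher and 5 lower in the core. Cd86, a ligand of Cd28 on T cells, had 625 CPM in K2-KO and 754 CPM in control members (-0.27, interval -0.42 to -0.12), and Cd80, its relative, 207 and 241 CPM (-0.22, interval -0.48 to 0.05). In the core Cd86 was at -0.34 (-0.51 to -0.16) and Cd80 at -0.44 (-0.75 to -0.12). Serpinb9, an inhibitor of granzyme B, had 67.6 and 136 CPM (-1.01, interval -1.40 to -0.61), and Stat4, which carries the IL-12 signal, 55.9 and 112 CPM (-1.01, interval -1.43 to -0.57). Both were as low in the core, at -1.02 and -1.21. Cd40 was at 0.16 (-0.35 to 0.71), and at 0.24 in the core.

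Cytokines and chemokines held 8 of 25 genes higher and 5 lower, and 5 of 19 higher and 3 lower in the core. Cxcl9, which attracts T cells, had 578 CPM (546 to 611) in K2-KO and 698 CPM (636 to 764) in control members, a ratio of -0.27 (-0.43 to -0.12), and -0.55 (-0.76 to -0.34) in the core, but 0.28 where cells past the C1q limit were let in. At least 1 UMI of Cxcl9 was found in 44.4% of K2-KO and 36.6% of control members. Ccl5, another chemokine for T cells, had 123 CPM in K2-KO and 35.5 CPM in control members (1.79, interval 1.18 to 2.46), with 34.7% of its UMIs in 1 cell, and 53.7 against 7.69 CPM in the core. Il12b, the p40 chain of IL-12, had 67.1 and 7.39 CPM, but 66.2% of its UMIs came from 1 cell and it was found in 4.27% of K2-KO and 7.32% of control members. Ccl22, which attracts regulatory T cells, had 25.8 CPM in K2-KO and 51.7 CPM in control members (ratio interval -1.64 to -0.35), and Il1a 11.7 and 37.0 CPM (-1.65, interval -2.51 to -0.79). A single cell held 26.7% of the Ccl22 UMIs, and a single cell 30% of the Il1a UMIs. In the core Ccl22 had 20.1 and 57.7 CPM and Il1a 3.05 and 13.5 CPM. Il15 was low in both, at 6.10 and 14.8 CPM.

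The interferon response list depended on which members were counted. Over all members the list's median was 0.15, and 10 of 43 genes lay past 1.5-fold on the higher side and 2 on the lower, while in the core 6 of 40 were higher and 5 lower, with a median of 0.01. Rsad2, the antiviral enzyme viperin, had 69.5 CPM (58.7 to 81.6) in K2-KO and 20.7 CPM (11.3 to 34.7) in control members, a ratio of 1.75 (0.96 to 2.65). In the core it was 14.0 CPM in K2-KO and 26.9 CPM in control cells, and in the remaining members 255 CPM in K2-KO and 0 CPM in control cells. Ifi27l2a was higher in both sets, with 682 CPM in K2-KO and 361 CPM in control members (0.92, interval 0.72 to 1.12), and 520 and 312 CPM in the core. Gbp5, a GTPase induced by interferon gamma, had 57.3 and 25.1 CPM (1.19, interval 0.45 to 2.01), and 1.31 (0.35 to 2.42) in the core.

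The 2 interferon genes past 1.5-fold on the lower side were Iigp1 and Tgtp2. Iigp1, a GTPase against intracellular parasites, had 154 CPM (138 to 172) in K2-KO and 355 CPM (311 to 403) in control members, a ratio of -1.20 (-1.44 to -0.95), and -0.96 (-1.30 to -0.62) in the core, but 0.0176 where cells past the C1q limit were let in. It was found in 31.6% of K2-KO and 17.1% of control members, with 20.6% of its UMIs in 1 cell. Ifitm3, a membrane protein that blocks virus entry, had 1248 CPM in K2-KO and 1713 CPM in control members (-0.46, interval -0.56 to -0.36, core -0.41). Irf7 was at -0.32 (-0.57 to -0.07) and Isg15 at 0.26 (-0.00 to 0.53), and in the core at -0.54 and -0.10.

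A promoter sequence that many interferon genes carry was searched because the list's ratios ran in both directions. The motif, part of the element that interferon-activated factors bind, is GAAA, any 2 bases and GAAA again, and it was searched on both strands in RefSeq windows from 250 bases before to 50 bases after each gene start, build GRCm38.p6. It was found in 23 of 41 windows of the list's 34 matched genes (of 43) (56.1%) and in 3.44% of all 32851 windows. Among the 34 matched genes, the 22 with the motif had a median ratio of 0.10 (range -1.18 to 1.75) and the 12 without it one of 0.05 (range -0.32 to 0.46), and 9 genes of the list were not matched. Of the list's 3 highest and 3 lowest ratios, those of Rtp4 (1.55) and Iigp1 (-1.20) belong to genes that were not matched. Windows of the others, Rsad2 and Ifit1 at the upper end and Oas3 and Tgtp2 at the lower end, are printed below. They run 5′ to 3′ on the gene's strand with the motif in capitals.
Rsad2, chr12:26456403-26456702, minus strand: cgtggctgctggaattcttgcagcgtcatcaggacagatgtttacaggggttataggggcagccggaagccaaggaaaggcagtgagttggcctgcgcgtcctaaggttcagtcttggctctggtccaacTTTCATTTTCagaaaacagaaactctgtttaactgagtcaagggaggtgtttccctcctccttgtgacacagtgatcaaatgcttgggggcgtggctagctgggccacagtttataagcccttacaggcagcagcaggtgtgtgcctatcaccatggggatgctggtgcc
Ifit1, chr19:34640639-34640938, plus strand: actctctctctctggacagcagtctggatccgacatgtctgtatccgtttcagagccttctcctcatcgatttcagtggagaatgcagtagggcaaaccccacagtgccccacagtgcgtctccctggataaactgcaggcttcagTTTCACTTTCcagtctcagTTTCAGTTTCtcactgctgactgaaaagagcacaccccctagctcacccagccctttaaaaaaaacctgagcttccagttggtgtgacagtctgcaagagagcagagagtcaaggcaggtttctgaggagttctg
Oas3, chr5:120777610-120777909, minus strand: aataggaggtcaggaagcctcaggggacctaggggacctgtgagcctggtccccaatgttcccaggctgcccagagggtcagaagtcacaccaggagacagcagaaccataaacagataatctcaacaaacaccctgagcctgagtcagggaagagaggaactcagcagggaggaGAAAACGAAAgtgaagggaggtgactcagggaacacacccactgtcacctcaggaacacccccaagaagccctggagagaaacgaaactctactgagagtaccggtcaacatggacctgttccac
Tgtp2, chr11:49064163-49064462, minus strand: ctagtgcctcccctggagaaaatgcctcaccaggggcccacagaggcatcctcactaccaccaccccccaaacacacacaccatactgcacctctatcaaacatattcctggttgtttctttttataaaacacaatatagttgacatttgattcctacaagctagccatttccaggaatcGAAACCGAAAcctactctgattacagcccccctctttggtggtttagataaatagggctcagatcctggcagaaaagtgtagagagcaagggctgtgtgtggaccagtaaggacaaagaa
A window was printed only if it held the motif, so its presence in genes of both directions was fixed by this choice. Ifit1, a binder of viral RNA, had 14.1 CPM in K2-KO and 4.43 CPM in control members (1.67, interval -0.02 to 4.02). Tgtp2, a GTPase, had 11.7 and 26.6 CPM (-1.18, interval -2.11 to -0.22), and Oas3, a sensor of double-stranded RNA, 12.7 and 17.7 CPM (-0.48, interval -1.51 to 0.63). In the core Ifit1 had 9.76 and 5.77 CPM, Tgtp2 10.98 and 21.2 CPM, and Oas3 10.98 and 23.1 CPM. None of the 4 rule genes' windows held this motif, its variant with GGAA as the first 4 letters (2.72% of all windows) or TGANTCA (7.81% of all windows), each searched on both strands with overlaps counted once per window.

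Of 25 genes of hypoxia and glycolysis, 8 lay past 1.5-fold on the higher side and 0 on the lower, beside 14.3% and 9.02% over all genes. The list's median was 0.27, and in the core 5 of 24 were higher and 0 lower, with a median of 0.31. Hk2, hexokinase, had 114 CPM (100 to 129) in K2-KO and 62.1 CPM (44.7 to 83.9) in control members, a ratio of 0.88 (0.40 to 1.39), and 1.17 (0.49 to 1.93) in the core. The glycolytic enzyme Gapdh had 1446 CPM in K2-KO and 1197 CPM in control members (0.27, interval 0.16 to 0.39, core 0.35), and Anxa2, which binds membranes, 320 and 189 CPM (0.76, interval 0.48 to 1.04, core 0.93). Vegfa, the vascular growth factor, had 103 and 54.7 CPM over all members but 9.76 and 7.69 CPM in the core. The list did not all point one way: Hif1a, the hypoxia-induced regulator, was at -0.04 (-0.27 to 0.21), Eno1, a glycolytic enzyme, at -0.14, Ndrg1, a hypoxia-induced gene, at -0.26, and Pdk1, a kinase that restrains pyruvate use, was lowest at -0.45 (-1.58 to 0.78). In the core Hif1a was at -0.39 (-0.71 to -0.06) and Ndrg1 at -0.40 (-0.74 to -0.06).

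Of 24 early-response genes that dissociation of tissue can induce, 3 were at least 1.5-fold lower in the K2-KO library and 0 higher, with a median of -0.30. Junb was at -0.00, Zfp36 at 0.12 and Egr2 at 0.27. Egr3, an early-response gene that the list does not hold, was higher in the K2-KO library, at 1.79 (0.94 to 2.78), and at 1.41 in the core. Jun had 417 CPM (390 to 446) in K2-KO and 822 CPM (755 to 893) in control members, a ratio of -0.98 (-1.13 to -0.82). Egr1 had 208 and 330 CPM (-0.66, interval -0.90 to -0.43), and Fos 1326 and 1718 CPM (-0.37, interval -0.47 to -0.27). In the core the ratios were -0.90 for Jun, -0.97 for Egr1 and -0.45 for Fos, and the list held 1 gene higher and 4 lower with a median of -0.34. The part of sample handling in other gene differences was not tested.

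**Figure D5:**
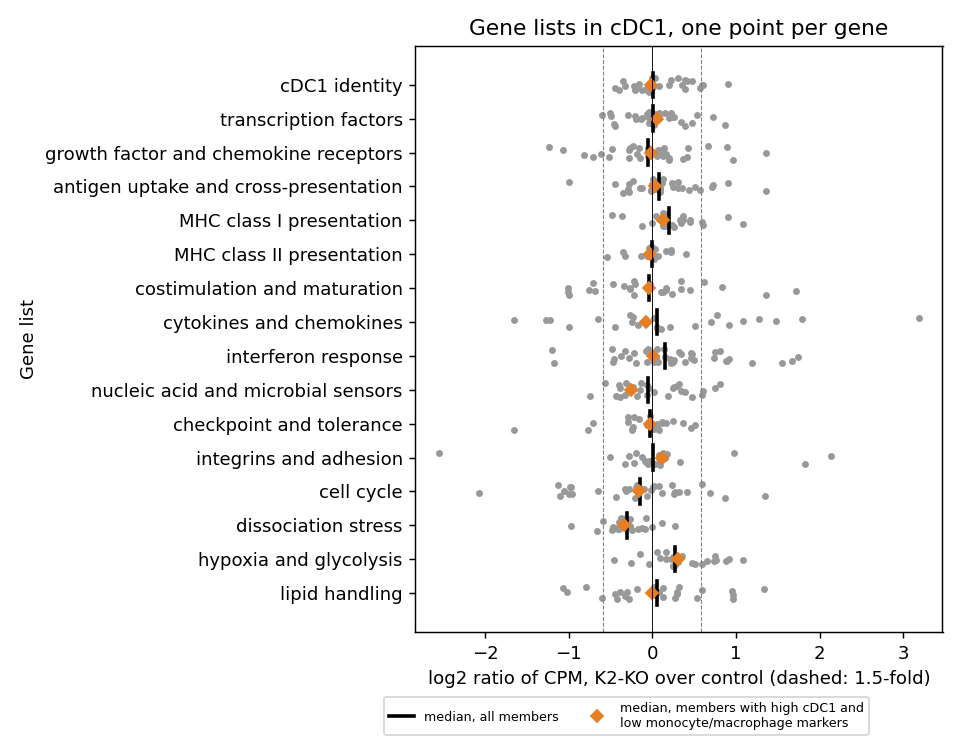
Each grey point is 1 gene of a list with at least 20 UMIs, placed by its log2 ratio of CPM, K2-KO over control, on the x axis and by list on the y axis; black bars are medians over all members, orange diamonds medians in the core members, and dashed lines mark 1.5-fold. The hypoxia and glycolysis list (0.27) and the dissociation list (-0.30) have the all-member medians farthest from 0.

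Nucleic acid and microbial sensors had 4 of 28 members higher and 1 lower with a median of -0.06, and 2 of 23 higher and 3 lower with a median of -0.26 in the core. Zbp1, a sensor of unusual nucleic acids, had 146 CPM in K2-KO and 82.8 CPM in control members (0.81, interval 0.40 to 1.25), and 0.53 (0.08 to 1.00) in the core. Checkpoint and tolerance genes had 0 of 25 higher and 3 lower over all members, but 3 of 20 higher and 0 lower in the core. Lower over all members were Clec4a2 at -1.65 (-2.58 to -0.73), Pvr at -0.77 (-1.34 to -0.17) and Arg1 at -0.71 (-1.29 to -0.11). Higher in the core were Entpd1, an ectoenzyme that breaks down ATP, at 0.80 (0.36 to 1.27) and Axl, a receptor kinase, at 0.74 (-0.37 to 2.04). Socs1, an inhibitor of cytokine signals, was also higher there, at 0.82 (0.20 to 1.495). Over all members Entpd1, Axl and Socs1 were at -0.02, 0.24 and 0.47. Cd274, the ligand PD-L1, had 343 CPM in K2-KO and 325 CPM in control members (0.08, interval -0.14 to 0.30, core 0.22). Havcr2, the receptor TIM-3, was at -0.23 (-0.44 to -0.02), and at -0.16 in the core. Ido1 held 9 UMIs in K2-KO and 1 UMI in control members, too few to compare. Lipid genes had 5 of 26 higher and 4 lower (2 of 21 and 3 in the core), led by Msr1, a scavenger receptor, at 55.9 and 22.2 CPM over all members and 1.22 and 1.92 CPM in the core.

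Integrins and adhesion genes, of which kindlins are partners, had 3 of 26 members higher and 1 lower, and 2 of 22 higher and 1 lower in the core. Fermt3, the kindlin of blood cells, had 134 CPM in K2-KO and 126 CPM in control members (0.10, interval -0.26 to 0.46, core 0.14). Fermt2 itself held 5 UMIs in K2-KO and 1 UMI in control members, and over all cells of each library it had 20.6 CPM in K2-KO and 42.6 CPM in control cells. Leukocytes, with 4.62 and 10.6 CPM of Fermt2, were 3705 of 6962 K2-KO cells and 3060 of 7747 control cells. The part of this difference in cell mix was not tested. Itgal, the LFA-1 alpha chain that binds Icam1, had 41.8 CPM (33.6 to 51.4) in K2-KO and 11.8 CPM (5.11 to 23.3) in control members, a ratio of 1.82 (0.78 to 3.08). Its interval lay above 0 in the core as well, at 1.96 (0.51 to 3.89). The alpha E chain Itgae was at -0.32 (-0.54 to -0.10), and at -0.22 (-0.44 to 0.01) in the core.

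The 24 genes ranked by their interval bound included 12 higher and 12 lower, and the rank used the values themselves. Of the 12 higher, 8 also had a core interval above 0, and of the 12 lower, 11 had one below 0. Among those higher in both sets were Fam114a2, S100a4, Egr3, Smu1, Wdr44, Itgal and Ccl6. S100a4, a calcium-binding protein of motile cells, had 298 CPM (275 to 322) in K2-KO and 118 CPM (93.8 to 147) in control members, and 220 and 59.6 CPM in the core, with 24.6% of its UMIs in 1 cell. Egr3, an early-response transcription factor, had 61.5 CPM in K2-KO and 17.7 CPM in control members (1.79, interval 0.94 to 2.78, core 1.41). Smu1, a splicing factor, had 54.0 and 16.3 CPM (1.73, interval 0.84 to 2.77, core 1.77), and was found in 56.4% of K2-KO and 24.4% of control members.

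The remaining 4 of the higher genes were carried by members outside the core. Gab1, an adaptor of growth factor receptors, had 36.2 CPM in K2-KO and 4.43 CPM in control members, and no UMI in the core of either library. Maf, a transcription factor of macrophages, had 23.9 and 2.96 CPM over all members and 1.83 and 0 CPM in the core. Ptgs2, the prostaglandin enzyme COX-2, had 85.9 and 32.5 CPM over all members and 7.93 and 0 CPM in the core, and Rsad2 is given above. Among the 8, Ccl6, a chemokine of myeloid cells, was also carried mostly by members outside the core. It had 131 CPM in K2-KO and 47.3 CPM in control members, and 513.9 and 204.5 CPM in the remaining members. The core held 28 of its 280 UMIs in K2-KO and 0 in control cells, at least 2.96-fold higher against a floor of 3 counts over the library.

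Of the 12 lower genes, Fgf13, an intracellular relative of growth factors, had 42.7 CPM (34.4 to 52.5) in K2-KO and 146 CPM (119 to 178) in control members, a ratio of -1.78 (-2.20 to -1.35). Pde3b, a phosphodiesterase that breaks down cyclic AMP, had 106 and 244 CPM (-1.21, interval -1.50 to -0.91), and Procr, the protein C receptor, 14.1 and 54.7 CPM (-1.96, interval -2.70 to -1.22). In the core these ratios were -1.45, -1.36 and -1.83. Palb2, a partner of Brca2 in DNA repair, had 13.1 CPM in K2-KO and 59.1 CPM in control members (-2.17, interval -2.92 to -1.44, core -2.20), and Tg, the thyroglobulin gene, 23.5 and 78.3 CPM (-1.74, core -1.66). Dcstamp, a membrane protein of cell fusion, had 98.6 and 266 CPM over all members, but 27.4 and 32.7 CPM in the core and 336 and 1042 CPM in the remaining members. The rest were Spsb1, Gm26802, Gstt2, Naa16, Iigp1 and Gm29282.

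The share of dividing members could not be told apart between the libraries at this depth. At least 2 UMIs of Mki67 and Top2a, genes of cycling cells, were found in 18.8% of K2-KO members (22 of 117, interval 12.2 to 27.1) and 19.5% of control members (8 of 41, interval 8.82 to 34.9). Thinned to 2000 UMIs per cell, which left out 2 K2-KO members and 1 control member, 12.2% of K2-KO and 5% of control members kept at least 1 UMI, a 2.43-fold difference with an interval of 0.559 to 22.1. In the core the unthinned counts were 15 of 87 K2-KO (17.2%) and 8 of 32 control members (25%). Dividing members were deeper, with medians of 28097 UMIs in K2-KO and 24506 UMIs in control cells, and 16170 and 15745 UMIs in the other members.

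Cell cycle genes had 4 of 34 members higher and 9 lower with a median of -0.15, and 4 of 33 higher and 9 lower in the core. Mki67 had 39.0 CPM (31.0 to 48.3) in K2-KO and 76.9 CPM (57.4 to 101) in control members, a ratio of -0.98 (-1.50 to -0.45), with 20.7% of its UMIs in 1 cell, and without that cell the ratio was 0.05. Top2a was at -0.17 (-0.75 to 0.44). In the core Mki67 was at -1.02 and Top2a at -0.37. The cyclin gene Ccnd2 had 288 and 179 CPM (0.69, interval 0.40 to 0.98, core 0.60). Of the dividing members, 15 of 22 in the K2-KO library and 8 of 8 in the control library were core members. Xcr1, which the rule used to choose members, had 213 CPM in K2-KO and 354 CPM in control dividing cells, and 213 and 117 CPM in the others. Irf8, which the rule did not use, had 1262 and 1428 CPM in dividing cells, and 1308 and 944 CPM in the others. Batf3, also outside the rule, had 173 and 142 CPM in dividing cells, and 190 and 123 CPM in the others.

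The same lists were set beside the other dendritic groups, each with its own cells but the same 2 libraries. The interferon list had a median of 0.15 in cDC1, -0.13 in the Cd209a group, 0.33 in the Ccr7 Fscn1 group and 0.87 in the plasmacytoid group, where 19 of 34 genes were at least 1.5-fold higher. Over all genes the medians were 0.035, 0.146, -0.012 and 0.042 in the same order, and 1359 of 7121 genes were higher in the plasmacytoid group. The hypoxia and glycolysis list had 0.27, -0.40, 0.13 and 0.56 in the same order. Costimulation and maturation genes had -0.04 in cDC1 and 0.64 in the Ccr7 Fscn1 group, where 18 of 32 were higher and 0 lower. Over all genes of the Ccr7 Fscn1 group, 1111 of 10721 were higher and 1376 lower. Much of that group went against the dendritic label, as given above. In its 27 K2-KO and 11 control cells that passed the leukocyte rule the costimulation median was 0.54, with 15 of 31 higher and 1 lower, and the interferon median was -1.22, with 28 of 38 lower and 0 higher. Over all genes in those cells, 1286 of 6441 were higher and 1345 lower. The dissociation list had -0.30 in cDC1, 0.11 in the Cd209a group, -0.50 in the Ccr7 Fscn1 group and 0.40 in the plasmacytoid group. Differences between these groups were not tested.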

How the data were processed

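The deposited matrix holds UMI counts per gene and cell barcode (32285 genes, 15288 barcodes) with no normalization. The submitters' processing notes name Cell Ranger 2.1.1 and mm10, while the file header names cellranger 6.0.1, so the version is uncertain. Barcode suffix 2 was read as the K2-KO library and suffix 1 as the control, from the library numbers in the labels alone. Members, gene lists and rules were chosen with earlier results of these data known. UMIs were summed over members per library and scaled to CPM. Intervals are exact at 95%: Clopper-Pearson for shares, Poisson for CPM, conditional binomial for ratios. Genes with at least 20 UMIs entered list counts. Named were the identity genes, 15 cDC1-highest genes, the top 12 per direction (at least 50 UMIs, 2-fold, at most 25% of UMIs in 1 cell, no other type's markers), list members with the 3 highest or lowest ratios or most UMIs, and a fixed set of single genes; further list members were named after their values were seen. Calculations were tested on simulated data. Doublets were called by Scrublet and kept. The tools were scanpy 1.11.5, scipy 1.17.1, pandas 2.3.3 and numpy 2.4.6 under Python 3.11.15. Some genes that the rule selects are not reported here.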

Additional observations from a re-analysis of the deposited data

Results flagged for a closer look

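Of the named genes with at least 50 UMIs and at most 25% of their UMIs in 1 cell in both groups compared, these were at least 1.5-fold apart between the libraries in opposite directions in cDC1 and in another dendritic group, with both intervals off 0. The limit on 1 cell was set after the values were seen. The differences between groups were not tested. Gab1 had a log2 ratio of 3.03 in cDC1 and -1.30 in the Ccr7 Fscn1 group (8.14 CPM in K2-KO and 20.1 CPM in control cells), of which 27 of 62 K2-KO and 11 of 36 control cells passed the leukocyte rule. Serpinb9 had -1.01 in cDC1 and 0.65 in that group (180 and 114 CPM), Stat4 -1.01 and 0.79 (253 and 146 CPM), and Vegfa 0.91 and -0.83 (23.2 and 41.2 CPM). Iigp1 had -1.20 in cDC1 and 1.88 in plasmacytoid cells (161 and 43.7 CPM). Fcgr4 had 1.358 in cDC1 and -1.90 in Cd209a cells (23.1 and 86.0 CPM), and Cd63 0.83 and -1.17 (30.8 and 69.4 CPM). In core cDC1, Gab1 had no UMI in either library, Vegfa had 9.76 CPM in K2-KO and 7.69 CPM in control cells, and Fcgr4 14.0 and 1.92 CPM. The limit left out Rsad2 (1.75 in cDC1, against -1.10 in Cd209a cells and -1.42 in the Ccr7 Fscn1 group), Fgf13 (-1.78, against 2.97 in Cd209a cells), Dcstamp (-1.43, against 1.45 in the Ccr7 Fscn1 group), Il12b (3.18, against -0.69 there), Apoe (-0.80, against 1.24 there), Egr1 (-0.66, against 4.11 in plasmacytoid cells), Ccr7 (1.362, against -1.39 in Cd209a cells) and Ccl22 (-1.003, against 3.41 in Cd209a cells and 1.53 in the Ccr7 Fscn1 group).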

How the results depend on the processing

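The shares of cDC1 among all cells, leukocytes and dendritic cells and the dividing share kept within their intervals under every alternative run (other cell filters, other marker thresholds, no C1q limit, doublets left out, thinning, and 3 alternatives added after the data were seen, the core members, no Ccr7 Fscn1 group, and only leukocytes). The log2 ratio for the share of all cells ranged from 1.60 to 1.74. The counts of genes at least 1.5-fold higher and lower were 569 and 366 with at least 50 UMIs per gene, and 2479 and 1659 with at least 5. Among single genes whose interval over all members lay off 0, the log2 ratio changed sign in 10 cases. With at least 2 UMIs of Xcr1 and Clec9a, Cxcl10 was at -0.36 and Cd74 at 0.00491. With no C1q limit, Iigp1 was at 0.0176, Cxcl9 at 0.28, Ccr7 at -0.18 and Cd74 at 0.0643. In the core Rsad2 was at -0.94, without dividing members B2m was at -0.0702 and Cd74 at 0.0112, and without the cell with most UMIs Mki67 was at 0.0543. The cause was not tested. In the other checks, ratios of single genes stayed within their intervals in 458 and moved past them in 68. Changes of sign in genes whose interval took in 0 are among these and were not counted apart. List medians held in 166 checks and moved in 10. No paired analysis was possible because each group holds 1 library. Depth limits genes under 50 UMIs in the control members, where 676476 UMIs were counted.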
